A study of Mus musculus with 8 samples.

Results

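Macrophages are the resident phagocytes of every tissue, and in the embryonic spine they sit beside osteoclasts, which descend from related precursors and resorb cartilage and bone. The macrophage genes described here are 9 named genes, Csf1r, Cd68, Adgre1, C1qa, C1qb, C1qc, Mrc1, Cd163 and Lyz2, chosen by name and read from a deposited count table of 27179 genes. All 9 were found by Entrez gene identifier, and all 9 were among the 18104 genes that passed the filter on low counts. The table covers whole spines of mouse embryos at E18.5. Of 8 libraries, 2 each came from male Pax1-Enh knockout (KO), male wild type (WT), female KO and female WT embryos. The labels name the KO allele only as Pax1-Enh and do not give its boundaries, the strain or the agent used to make it, and they do not say whether libraries came from separate embryos or from pools. P-values therefore measure the spread between these libraries, which may be technical.

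Macrophages survive and divide on signals through the receptor tyrosine kinase encoded by Csf1r, which binds the ligands Csf1 and Il34. Much of their gene programme is switched on by the transcription factor PU.1, the product of Spi1. The members fall by role into the growth factor receptor (Csf1r), a lysosomal glycoprotein and a surface adhesion receptor long used as macrophage stains (Cd68 and Adgre1, whose product is F4/80), the chains of the complement recognition protein C1q (C1qa, C1qb, C1qc), scavenger receptors of resident macrophages (Mrc1 for mannosylated glycoproteins, Cd163 for haemoglobin bound to haptoglobin) and the secreted enzyme lysozyme (Lyz2), which neutrophils and lung epithelium also make. Csf1r and Cd68 are also expressed by osteoclasts and their precursors, so the set does not mark macrophages alone.

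All positions are given in the mm10 build (GRCm38), with spans from RefSeq and strands and exon lengths from the GENCODE M21 annotation. The C1q genes lie side by side on the minus strand of chromosome 4: C1qb spans 136880126 to 136886200, C1qc 136889801 to 136892936 and C1qa 136895916 to 136898844. The gap is 3600 bases between C1qb and C1qc and 2979 bases between C1qc and C1qa. Lyz2 (chromosome 10, 117277541 to 117282272, minus strand) is 5522 bases from its near-identical paralog Lyz1, so reads could be split between the pair. Cd68 lies on chromosome 11 (69664213 to 69666170, minus strand), Adgre1 on chromosome 17 (57358581 to 57483529, plus strand), Mrc1 on chromosome 2 (14229414 to 14332023, plus strand) and Cd163 on chromosome 6 (124304636 to 124330529, plus strand).

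The stretch of 250 bases before the RefSeq transcription start (GRCm38.p6) was read for 6 of the 9 genes, to show what these promoters share. For C1qc and Cd163 this start lies inside the gene span given above, so their windows overlap it. The core of the PU.1 motif, GAGGAA or its reverse complement TTCCTC, was present in 4 of the 6 (Cd68, C1qb, C1qc and Mrc1), against 23.4% of 32536 mouse promoters of the same length. The longer form GAGGAAGT or its reverse complement ACTTCCTC, which contains the core, was present in 1 of the 6 (C1qc), against 2.45% of all promoters. Neither form was found in these windows of Cd163 and Lyz2. A match is a description of letters and not a measured binding site. The promoters of 3 of the genes with a match are shown 5′ to 3′ on the strand of the gene, with the core in capitals. The lines are C1qb (chr4:136886201-136886450, minus strand), C1qc (chr4:136892915-136893164, minus strand) and Cd68 (chr11:69666171-69666420, minus strand).
C1qb: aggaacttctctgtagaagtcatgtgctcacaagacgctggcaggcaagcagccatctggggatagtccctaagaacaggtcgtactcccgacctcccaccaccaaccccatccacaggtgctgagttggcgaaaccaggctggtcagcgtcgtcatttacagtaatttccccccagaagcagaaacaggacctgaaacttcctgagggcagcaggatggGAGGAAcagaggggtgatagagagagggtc
C1qc: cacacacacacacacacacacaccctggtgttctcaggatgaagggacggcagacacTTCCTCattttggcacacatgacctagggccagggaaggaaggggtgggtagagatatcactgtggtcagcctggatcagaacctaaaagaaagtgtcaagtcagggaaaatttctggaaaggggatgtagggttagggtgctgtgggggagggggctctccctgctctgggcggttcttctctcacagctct
Cd68: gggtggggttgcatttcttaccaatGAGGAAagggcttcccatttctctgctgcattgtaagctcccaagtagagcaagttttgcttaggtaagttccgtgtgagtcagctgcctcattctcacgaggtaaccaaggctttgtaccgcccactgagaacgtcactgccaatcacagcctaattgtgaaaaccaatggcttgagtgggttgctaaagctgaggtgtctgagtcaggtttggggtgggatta
The core began 30 bases before the start of C1qb, 193 bases before that of C1qc and 225 bases before that of Cd68. In Mrc1 it occurred 3 times, at 180, 167 and 35 bases before the start.

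Libraries held 35181518 to 67575728 counts, and all 4 KO libraries (59722279 to 67575728) were deeper than all 4 WT libraries (35181518 to 48021848), so depth and genotype cannot be told apart. Levels are counts per 1000000 counts (CPM), with library sizes scaled by TMM in edgeR. A count of 3 corresponded to 0.0392 to 0.0831 CPM, far below every value of the 9 genes, the lowest of which was 5.44 CPM. Mitochondrial transcripts took 4.56% and 15.6% of counts in male KO, 18.3% and 20.9% in male WT, 13.6% and 4.66% in female KO, and 5.55% and 7.27% in female WT. The male libraries matched their sex label by Kdm5d (16.6 to 23.9 CPM in males, a single count in each female library), and cartilage collagen Col2a1 (3526 to 22474 CPM) showed skeletal tissue in each library. The fit across all genes found 0 genes past an adjusted p of 0.05 for KO against WT in males, in females or over both sexes (edgeR quasi-likelihood test, Benjamini-Hochberg over 18104 genes). At an unadjusted p below 0.05 the counts were 2684, 1679 and 1237 genes. DESeq2 called 487, 144 and 141, and limma voom called 0 in each. Leaving out female WT 2 gave 33 called genes in females.

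Levels of different genes were compared per kilobase of merged exon length. Lyz2 was the highest of the 9 genes and C1qa the next in 8 of 8 libraries, and Adgre1 and Cd163 were the lowest pair in 8 of 8. Over all 8 libraries Lyz2 averaged 91.3 ± 37.1 CPM per kb and C1qa 40.9 ± 9.52 CPM per kb (SD, n = 8 each). Cd68 (23.8 ± 7.27) and C1qc (23.6 ± 4.51 CPM per kb) followed and did not differ beyond their spread, nor did Csf1r (14.4 ± 3.74), Mrc1 (12.6 ± 3.83) and C1qb (11.5 ± 3.19 CPM per kb), which changed places between libraries. Adgre1 stood at 5.34 ± 0.964 and Cd163 at 1.70 ± 0.567 CPM per kb. The highest level exceeded the lowest by 25.03-fold in male KO 1 and by 92.5-fold in male WT 2. Each gene varied over a narrower range across libraries, from 1.79-fold for C1qc to 3.73-fold for Lyz2. In whole tissue, fewer macrophages and less RNA per macrophage cannot be told apart.

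**Figure D1:**
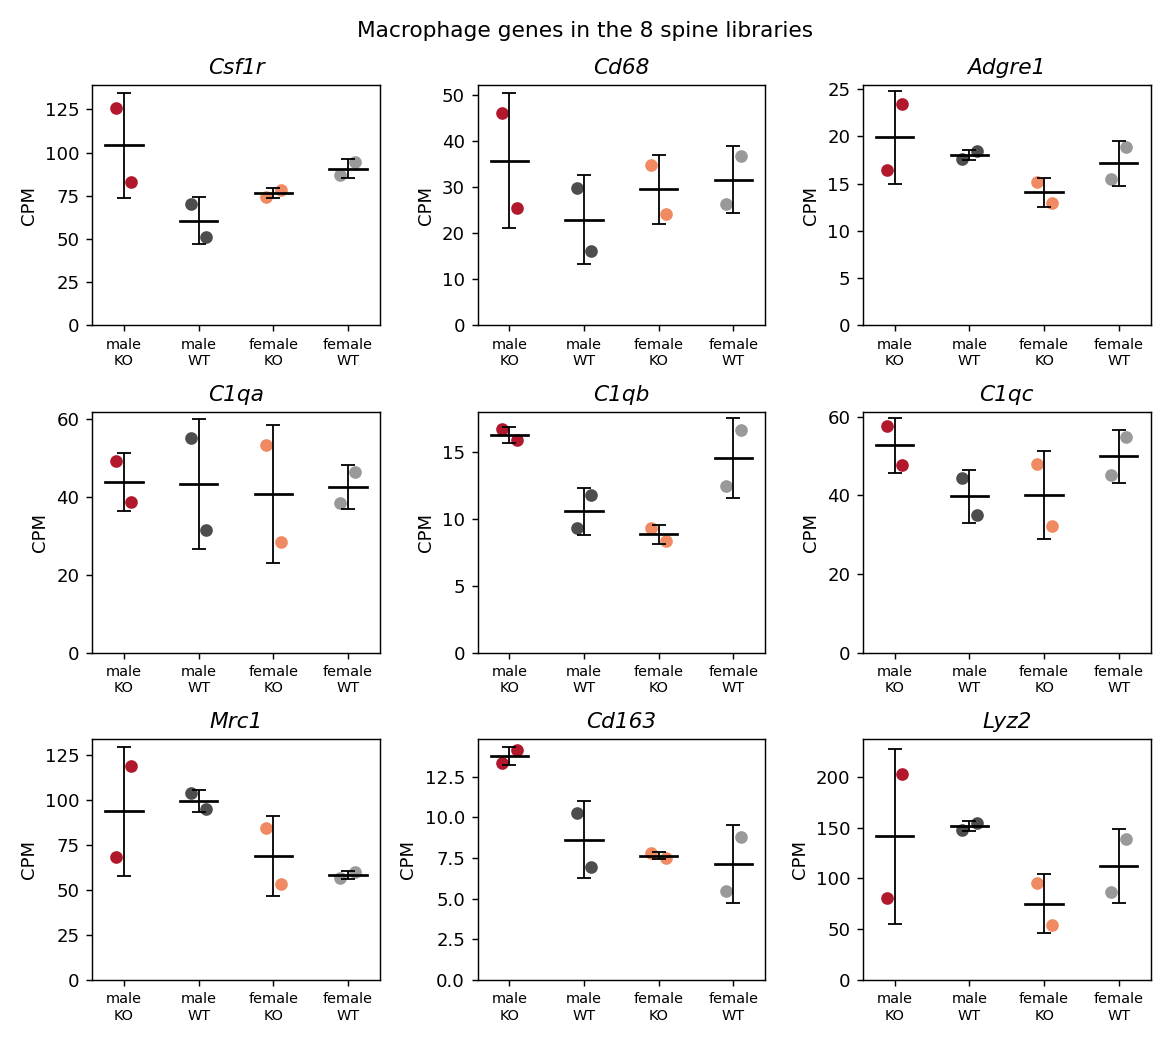
CPM (y axis, linear, from 0) of each of the 9 genes in every library, by group (x axis: male KO, male WT, female KO, female WT). Points are libraries, bars the mean and whiskers the SD of 2 libraries. For Csf1r, C1qb, C1qc and Cd163 both male KO points lie above both male WT points, while in females both KO points of Csf1r, C1qb and Adgre1 lie below both WT points.

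Csf1r, the receptor for Csf1 and Il34, had 126 and 82.8 CPM in male KO spines, against 70.4 and 51.0 CPM in male WT spines. Both male KO values lay above both male WT values. The log2 fold change of Csf1r in males was 0.78 (SE 0.27, 95% interval 0.16 to 1.40), with an unadjusted p of 0.0190 and an adjusted p of 0.282 (edgeR quasi-likelihood test). In female spines Csf1r had 74.4 and 78.7 CPM in KO and 87.1 and 94.5 CPM in WT. Both female KO values lay below both WT values, by a log2 fold change of -0.25 (SE 0.27, edgeR adjusted p = 0.721). The KO effect differed between the sexes by -1.03, female minus male (SE 0.38, edgeR unadjusted p = 0.0258, adjusted p = 0.272), and so this difference did not pass the threshold. Male KO 1 stood apart as the highest of the 8 libraries, and without it the male log2 fold change was 0.45. Csf1r (chromosome 18, 61105572 to 61131139, plus strand) shares 873 exonic bases with Hmgxb3 on the opposite strand. The library kit keeps strand, but the strand setting of the counting was not stated, so reads of Csf1r and Hmgxb3 may be mixed. Hmgxb3 had 33.2 and 18.7 CPM in male KO, 20.05 and 21.7 CPM in male WT, 24.3 and 30.3 CPM in female KO, and 32.6 and 32.0 CPM in female WT. Its log2 fold change was 0.31 in males and -0.24 in females, the same signs as Csf1r; its part in the Csf1r values was not tested.

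Cd68, which codes for a lysosomal glycoprotein of phagocytes, had 46.0 and 25.3 CPM in male KO and 29.7 and 16.1 CPM in male WT. In females it had 34.8 and 24.2 CPM in KO and 26.4 and 36.7 CPM in WT. The genotypes overlapped in both sexes. Cd68 differed by 0.64 on the log2 scale in males (SE 0.39, edgeR adjusted p = 0.447) and -0.10 in females (SE 0.39, edgeR adjusted p = 0.930). Without male KO 1 the male value was 0.15. Adgre1, which codes for the F4/80 antigen, had 16.4 and 23.4 CPM in male KO against 17.6 and 18.4 CPM in male WT, and the KO pair spanned the WT pair. In females Adgre1 had 15.2 and 12.97 CPM in KO and 15.5 and 18.9 CPM in WT, with both KO values just under both WT values. Its log2 fold change was 0.14 in males (SE 0.25, edgeR adjusted p = 0.794) and -0.29 in females (SE 0.25, edgeR adjusted p = 0.660).

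The C1q chains assemble into the recognition molecule that starts the classical complement pathway, and tissue macrophages are its main source. C1qb had 16.7 and 15.9 CPM in male KO and 9.32 and 11.8 CPM in male WT. In females C1qb had 9.34 and 8.36 CPM in KO and 12.5 and 16.7 CPM in WT. The groups did not overlap in either sex, with KO above WT in males and below WT in females. The log2 fold change of C1qb was 0.63 in males (SE 0.24, edgeR unadjusted p = 0.0296, adjusted p = 0.301) and -0.72 in females (SE 0.24, edgeR unadjusted p = 0.0162, adjusted p = 0.532). Taken as female minus male, the effects of C1qb differed by -1.34 (SE 0.34, edgeR unadjusted p = 0.00365, adjusted p = 0.243). Among the 5 comparisons and 3 tools, this was the only call of any of the 9 genes, with an adjusted p of 0.0433 in DESeq2 and 0.271 in limma voom.

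C1qc and C1qa, the neighbours of C1qb, gave smaller estimates. C1qc had 57.6 and 47.8 CPM in male KO and 44.5 and 35.02 CPM in male WT, without overlap. In females C1qc had 48.0 and 32.3 CPM in KO and 45.2 and 54.8 CPM in WT, with overlap. C1qc gave a log2 fold change of 0.41 in males (SE 0.27, edgeR adjusted p = 0.473) and -0.32 in females (SE 0.27, edgeR adjusted p = 0.656). C1qa had 49.0 and 38.5 CPM in male KO and 54.9 and 31.4 CPM in male WT. Female spines had 53.3 and 28.3 CPM of C1qa in KO and 38.5 and 46.4 CPM in WT. The KO and WT values of C1qa overlapped in both sexes, and its log2 fold changes were 0.02 in males (SE 0.36, edgeR adjusted p = 0.983) and -0.06 in females (SE 0.36, edgeR adjusted p = 0.958).

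The balance of the C1q chains was not the same in every library. C1qb made up 8.57% of C1q counts in male WT 1 (exact Clopper-Pearson 95% interval 7.76% to 9.44%, 378 of 4409 counts) and 8.44% in female KO 1 (7.76% to 9.16%, 523 of 6198 counts). In the other 6 libraries the share was 12.1% to 15.5%, and none of their intervals, the lowest of which began at 11.2%, reached those of the low pair. The same pair had the highest C1qa shares, 50.5% in male WT 1 and 48.1% in female KO 1, against 37.7% to 41.0% in the other 6. C1qc ranged less, from 40.9% in male WT 1 to 47.0% in female WT 1. The low pair was 1 library of each genotype and of each sex. The mean C1qb share was 12.4 ± 2.99% in KO and 12.7 ± 2.87% in WT (SD, n = 4 each; exact permutation test over 70 assignments, two-sided p = 0.857, smallest possible p = 0.0286). These intervals cover counting error only.

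**Figure D2:**
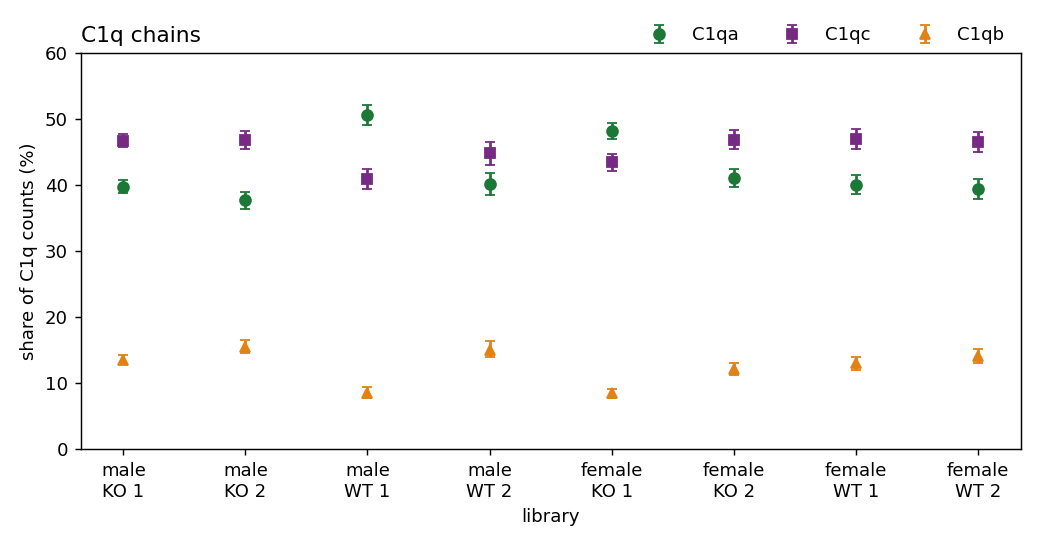
Share of the summed C1q counts (y axis, %, from 0) taken by C1qa, C1qc and C1qb in each of the 8 libraries (x axis). Whiskers are exact 95% binomial intervals. Male WT 1 and female KO 1 show C1qb at 8.57% and 8.44%, below the other 6 libraries, and C1qa at 50.5% and 48.1%, above them.

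The scavenger receptors bind and take up ligands from the surroundings of the cell. Cd163, the haptoglobin-haemoglobin receptor, had 13.4 and 14.2 CPM in male KO and 10.3 and 6.94 CPM in male WT, without overlap. In females Cd163 had 7.82 and 7.47 CPM in KO and 5.44 and 8.81 CPM in WT, with KO inside the WT range. The log2 fold change of Cd163 was 0.68 in males (SE 0.30, edgeR adjusted p = 0.337), 0.10 in females (SE 0.30, edgeR adjusted p = 0.900) and 0.39 over both sexes (SE 0.23, edgeR adjusted p = 0.806). Mrc1, the mannose receptor, had 68.4 and 119 CPM in male KO and 104 and 95.4 CPM in male WT. Female spines had 84.8 and 53.3 CPM of Mrc1 in KO and 56.9 and 59.8 CPM in WT. The KO pair of Mrc1 spanned the WT pair in both sexes. Its log2 fold change was -0.09 in males (SE 0.32, edgeR adjusted p = 0.905) and 0.24 in females (SE 0.32, edgeR adjusted p = 0.769).

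Mrc1 separated the libraries along a line other than genotype. Its 4 highest values, 84.8 to 119 CPM, were those of male KO 2, male WT 1, male WT 2 and female KO 1, and its 4 lowest, 53.3 to 68.4 CPM, those of male KO 1, female KO 2, female WT 1 and female WT 2. The first 4 libraries also had the 4 highest mitochondrial shares (13.6% to 20.9%, against 4.56% to 7.27% in the rest). The ratio of Mrc1 to Csf1r per kb split the same way, at 1.03 to 1.70 in the first 4 libraries and 0.492 to 0.614 in the rest. The ratio averaged 0.861 ± 0.376 in KO and 1.05 ± 0.559 in WT (SD, n = 4 each; exact permutation test, two-sided p = 0.629, adjusted p = 0.952 over 12 ratios). With the mitochondrial share as a term in the fit, the male log2 fold change of Mrc1 was 0.38 and that of Csf1r 0.50. The split was not particular to Mrc1. Of further phagocyte genes, named here after their values were seen, Ly86, Ms4a6c and Aif1 split the same way. Ly86 had 16.7 to 23.4 CPM in the first 4 libraries and 7.67 to 9.24 CPM in the rest. Stab1 split in the opposite direction, and Itgam and Laptm5 did not split. The share of all tested genes that split this way was not counted, so the split cannot be called unusual for Mrc1 or these genes. What links the mitochondrial share and these genes was not tested.

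Lyz2, the lysozyme gene, spread most widely. It had 80.6 and 203 CPM in male KO, 148 and 155 CPM in male WT, 95.8 and 54.4 CPM in female KO, and 86.7 and 138 CPM in female WT. The genotypes overlapped in both sexes. The log2 fold change of Lyz2 was -0.09 in males (SE 0.45, edgeR adjusted p = 0.929) and -0.58 in females (SE 0.46, edgeR adjusted p = 0.639). The male estimate was -0.91 without male KO 2 and 0.42 without male KO 1. The paralog Lyz1 was at 0.000811 to 0.0184 of the Lyz2 level per kb, and it was highest in male WT 1. The summed level of 13 neutrophil genes was 573 and 1168 CPM in male KO, 1028 and 1299 CPM in male WT, 302 and 137 CPM in female KO, and 185 and 526 CPM in female WT. Female KO 2 was lowest for both Lyz2 and this sum, and male KO 2 and male WT 2 were the top pair for both. The part of neutrophils in the Lyz2 values was not tested.

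In males, 7 of the 9 genes had a positive KO minus WT log2 fold change (45.4% of all 18104 genes did), with a median of 0.41 beside -0.06 over all genes. Without male WT 2 that median was 0.25. In females 2 of the 9 were positive (52.6% of all genes), with a median of -0.25 beside 0.03. The female median was -0.40 without female KO 1, -0.056 without female KO 2 and -0.15 without female WT 2, so its size rested on single libraries. None of the 9 passed an adjusted p of 0.05 in edgeR in males or females, beside 0% of all genes. At an unadjusted p below 0.05 stood 2 of the 9 in males (14.8% of all genes) and 1 of the 9 in females (9.27%). Higher without overlap in male KO were 4 of the 9, Csf1r, C1qb, C1qc and Cd163, against 19.7% of all genes. Lower without overlap in female KO were 3 of the 9, Csf1r, C1qb and Adgre1, against 26.2% of all genes. In DESeq2 0 of the 9 were called in males (2.74% of genes tested) and 0 in females (0.811%).

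Over both sexes the KO minus WT estimates were close to 0. They ran from -0.34 for Lyz2 (SE 0.32, edgeR adjusted p = 0.924) to 0.39 for Cd163, with a median of 0.05 beside -0.01 over all genes. Leaving out 1 library at a time moved this median between -0.095 (without male WT 2) and 0.19 (without female KO 2), and it was also negative without male KO 1 (-0.015). Positive were 5 of the 9, beside 48.9% of all genes. Without overlap between the 4 KO and the 4 WT libraries were 0 of the 9, beside 1.68% of all genes higher and 1.63% lower. At an unadjusted p below 0.05 stood 0 of the 9 (6.83% of all genes), and DESeq2 called 0 (0.779%). The 95% intervals of the fold (KO over WT) were 0.806 to 1.80 for Csf1r, 0.620 to 1.51 for C1qb and 0.477 to 1.31 for Lyz2. With 4 libraries of each genotype, changes within these bounds remain possible, and the bounds are not limits of detection.

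Set against the male KO effect, the female KO effect was lower for 8 of the 9 genes, with Mrc1 (0.33, SE 0.45) the exception, and 51.7% of all genes were positive. The median over the 9 was -0.57 beside 0.03 over all genes. It was -0.96 without female KO 1, -0.89 without male WT 1 or without female WT 1, and -0.32 without female WT 2. The estimates were -1.34 for C1qb, -1.03 for Csf1r, -0.74 for Cd68, -0.72 for C1qc, -0.57 for Cd163, -0.49 for Lyz2, -0.43 for Adgre1 and -0.08 for C1qa. At an unadjusted p below 0.05 stood 2 of the 9 (C1qb and Csf1r), beside 16.7% of all genes. In edgeR 0 of the 9 passed the adjusted threshold (0% of all genes), and in DESeq2 1 did (C1qb, 2.21% of genes tested). The male and the female fold changes compare separate libraries. Their SEs and p-values are not separate, because the fit took 1 estimate of spread per gene from all 8 libraries.

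**Figure D3:**
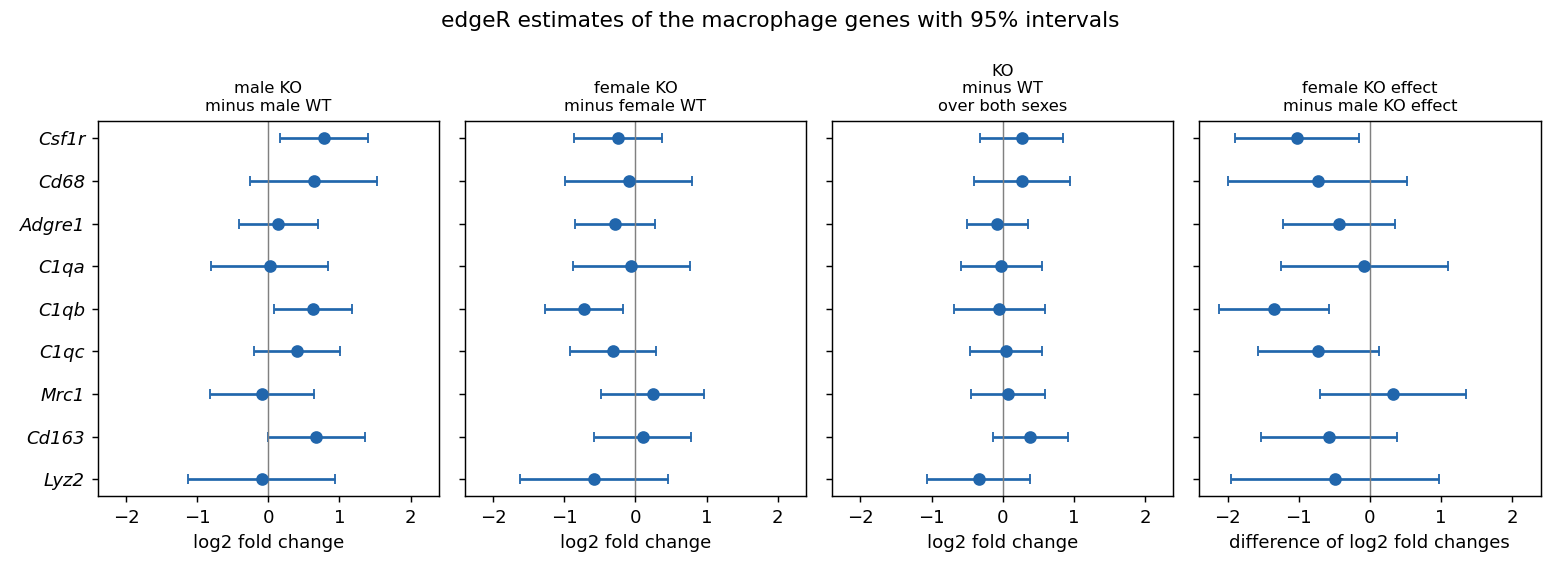
Log2 fold changes of the 9 genes from edgeR (x axis) with 95% intervals, for male KO minus male WT, female KO minus female WT, KO minus WT over both sexes and the female effect minus the male effect. In males 7 of 9 points lie right of 0, in females 2 of 9, and in the last panel 1 of 9 (Mrc1).

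Between the sexes, over both genotypes, female minus male estimates were negative for 7 of the 9 genes (49.5% of all genes were positive), with a median of -0.21 beside 0.00 over all genes. Female KO 2 decided the sign of this median, which was 0.0061 without it. The median was -0.083 without male KO 1, -0.12 without male KO 2, -0.34 without male WT 1 and -0.38 without female WT 2. The lowest were Lyz2 at -0.67 (SE 0.33, edgeR adjusted p = 0.567), Mrc1 at -0.61 (SE 0.23, edgeR unadjusted p = 0.0259, adjusted p = 0.560) and Cd163 at -0.56 (SE 0.23, edgeR unadjusted p = 0.0373, adjusted p = 0.565). Beside these 2 genes at an unadjusted p below 0.05 stood 8.67% of all genes. None of the 9 passed the adjusted threshold, which 0.0166% of all genes did, and DESeq2 and limma voom called 0 of the 9 (1.3% and 0.0276% of genes). Female and male libraries overlapped for each of the 9, beside 2.23% of all genes higher and 1.88% lower in females without overlap. With the mitochondrial share in the fit, the Mrc1 estimate was -0.29 and that of Lyz2 was also -0.29.

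The 9 genes did not vary as 1 block across the libraries. Likeness was measured as the root mean square distance between log2 CPM profiles over the 8 libraries, each scaled to mean 0 and SD 1, where unrelated profiles lie 1.32 apart and opposite ones 1.87. Csf1r and Cd68 were 0.510 apart, both highest in male KO 1 and lowest in male WT 2. Lyz2 lay 0.334 from Adgre1 and 0.598 from Mrc1, and all of these genes were highest in male KO 2 and lowest in female KO 2. Csf1r and Mrc1 were 1.59 apart, beyond the distance of unrelated profiles. C1qc was nearest to the common profile of the 9, at 0.464, and Mrc1 farthest, at 0.989. Male KO 1 or male KO 2 was the highest library for 8 of the 9 genes, 4 each, with C1qa (male WT 1) the exception. Female KO 2 was the lowest for 6 of the 9. These distances are descriptions over 8 libraries that differ in depth, which follows genotype, and in mitochondrial share, which differs widely within both KO groups.

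**Figure D4:**
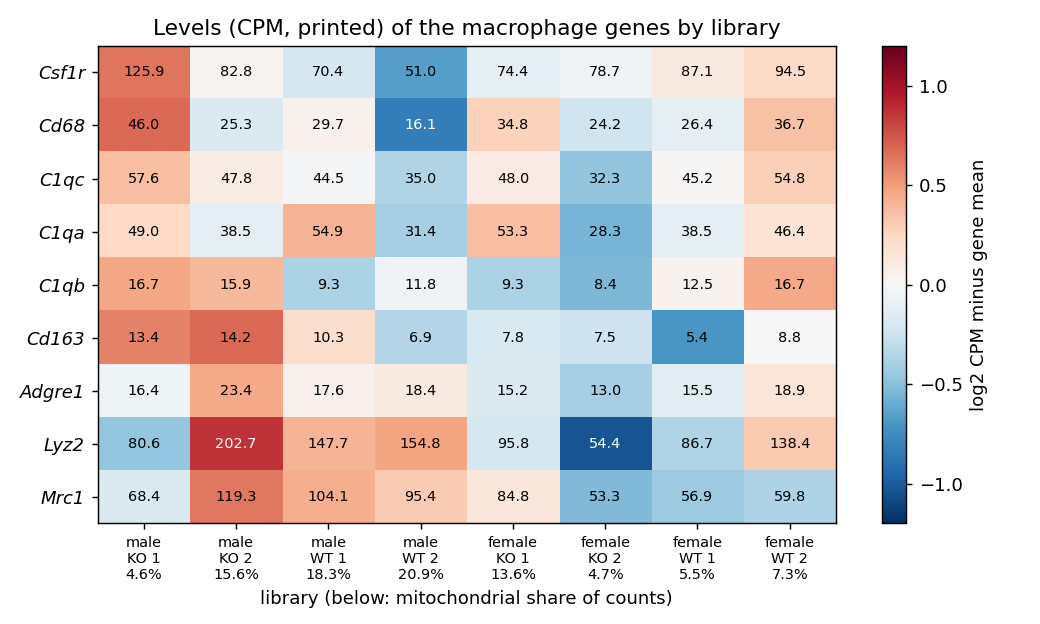
Level of each of the 9 genes (rows) in each library (columns), with the CPM printed and the colour giving log2 CPM minus the mean of that gene. The mitochondrial share of counts stands under each library. Csf1r and Cd68 peak in male KO 1 at 126 and 46.0 CPM, while Lyz2, Mrc1 and Adgre1 peak in male KO 2 at 203, 119 and 23.4 CPM.

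By the same measure the 10 other genes nearest to the common profile were Ncf1 (0.228), Mcpt4 (0.273), Fmo5 (0.304), Apbb1ip (0.323), Cyp2d22 (0.334), Arl11 (0.340), Ifitm3 (0.340), Napsa (0.356), Sp140 (0.360) and Syngr4 (0.363). Ncf1 codes for a subunit of the phagocyte NADPH oxidase. It had 18.9 and 19.2 CPM in male KO, 15.7 and 11.9 CPM in male WT, 13.3 and 11.2 CPM in female KO, and 12.7 and 17.0 CPM in female WT. The male KO pair of Ncf1 lay above the other 6 libraries. Mcpt4 codes for a mast cell protease. All 10 were picked as the nearest of the 18104 tested genes, and they lay nearer to the common profile than any of the 9 genes themselves.

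The ligands, receptors and regulators of macrophages were read from a list of 16 genes, of which 15 were tested. Positive were 10 of the 15 in males (median 0.22) and 6 of the 15 in females (median -0.37), and 0 passed the adjusted threshold in edgeR in any comparison. At an unadjusted p below 0.05 stood 6 of the 15 in males, 5 in females and 3 over both sexes, beside 14.8%, 9.27% and 6.83% of all genes. DESeq2 called 2, 3 and 3 of them, beside 2.74%, 0.811% and 0.779% of all genes. The ligand Csf1 had 48.5 and 35.7 CPM in male KO, 31.9 and 26.5 CPM in male WT, 38.3 and 38.5 CPM in female KO, and 36.4 and 37.1 CPM in female WT. KO lay above WT in both sexes, by a log2 fold change of 0.53 in males (SE 0.23) and 0.07 in females (SE 0.23), and over both sexes the value was 0.30 (SE 0.18, edgeR adjusted p = 0.813). Il34, the other ligand, stayed between 3.78 and 5.98 CPM. Spi1, which codes for PU.1, had 26.0 and 14.8 CPM in male KO, 11.8 and 10.5 CPM in male WT, 15.7 and 11.1 CPM in female KO, and 16.2 and 19.5 CPM in female WT. As for Csf1r and C1qb, KO lay above WT in males (0.88, SE 0.31) and below WT in females (-0.41, SE 0.31), with edgeR adjusted p-values of 0.288 and 0.627. Spi1 and Il34 were named after their values were seen.

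Of the regulators, Runx1 and Nr1h3 separated the genotypes without overlap over both sexes, which none of the 9 genes did. Over all genes the share without overlap was 1.68% higher in KO and 1.63% lower. These regulators were named for small p-values over both sexes, so their lack of overlap is no separate evidence. Runx1, a transcription factor of blood and skeletal cells, had 26.7 and 23.1 CPM in male KO, 13.7 and 13.1 CPM in male WT, 18.1 and 18.7 CPM in female KO, and 13.5 and 12.2 CPM in female WT. All 4 KO values of Runx1 lay above all 4 WT values. The log2 fold change over both sexes was 0.71 (SE 0.16), with an adjusted p of 0.510 in edgeR and 0.0190 in DESeq2. Nr1h3, which codes for the oxysterol receptor LXR alpha, had 2.81 to 3.82 CPM in KO and 4.59 to 20.01 CPM in WT, again without overlap, with a log2 fold change of -1.56 (SE 0.40, edgeR adjusted p = 0.565, DESeq2 0.0219). Cebpa, a regulator of myeloid cells and fat cells, had 11.3 to 21.4 CPM in KO and 16.4 to 191 CPM in WT, with overlap (-2.30, SE 0.63, edgeR adjusted p = 0.601, DESeq2 0.00731). Nr1h3 and Cebpa are also expressed in fat, and the summed level of 8 fat cell genes was 226 to 466 CPM in KO and 749 to 4991 CPM in WT, with male WT 1 and female WT 2 the highest for Nr1h3, Cebpa and the fat genes. The part of fat tissue in these values was not tested.

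Of 34 further genes of macrophages and related phagocytes, 33 were tested. Positive were 24 of the 33 in males (median 0.35), 14 of the 33 in females (median -0.15) and 26 of the 33 over both sexes (median 0.15), while the female effect exceeded the male effect for 7 of the 33. In edgeR 0 of the 33 passed the adjusted threshold in any comparison, with 10 in males, 0 in females and 1 over both sexes at an unadjusted p below 0.05 (14.8%, 9.27% and 6.83% of all genes). DESeq2 called 3 in males (2.74% of all genes) and 0 in the other 2 comparisons. The smallest p over both sexes was that of Mertk, a receptor for apoptotic cells, with 16.5 and 18.47 CPM in male KO, 11.8 and 11.5 CPM in male WT, 15.1 and 15.6 CPM in female KO, and 11.9 and 11.1 CPM in female WT. All 4 KO values of Mertk lay above all 4 WT values (0.50, SE 0.15, edgeR adjusted p = 0.641), as did those of 1.68% of all genes. Next came Cd14, a coreceptor for bacterial lipopolysaccharide (0.60, SE 0.30), Gpnmb, a glycoprotein of phagocytes and osteoclasts (0.47, SE 0.27), and Itgam, the integrin chain CD11b (0.60, SE 0.36). Itgam had 23.1 and 17.8 CPM in male KO and 8.21 and 7.36 CPM in male WT, a log2 fold change of 1.39 (SE 0.34, edgeR adjusted p = 0.237, DESeq2 0.0128). In females Itgam had 7.62 and 8.48 CPM in KO and 6.03 and 12.5 CPM in WT. Hmox1, the haem-degrading enzyme, was named after its values were seen: it had 75.4 and 44.1 CPM in male KO and 21.2 and 14.9 CPM in male WT (1.73, SE 0.30, edgeR adjusted p = 0.184, DESeq2 0.000119). In females Hmox1 had 23.4 and 20.7 CPM in KO and 33.4 and 35.5 CPM in WT, the opposite direction.

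C1q acts with the proteases C1r and C1s and with downstream complement proteins. Of 12 such genes 10 were tested, and 9 of the 10 were positive in males (median 0.48), 3 of the 10 in females (median -0.11) and 9 of the 10 over both sexes (median 0.17). In all 10 the female effect was below the male effect. None passed the adjusted threshold in edgeR in any comparison, with 1 in males, 1 in females and 0 over both sexes at an unadjusted p below 0.05 (14.8%, 9.27% and 6.83% of all genes), which is close to or below those shares. DESeq2 called 1 of the 10 in males (C5ar1, the receptor for the C5a fragment), beside 2.74% of all genes. C3, the central component, was the negative gene over both sexes (-1.45, SE 0.65, edgeR adjusted p = 0.738), with 9.18 to 49.7 CPM in KO and 21.8 to 74.8 CPM in WT. Serping1, the C1 inhibitor (0.24, SE 0.20), C4b (0.49, SE 0.41) and C1ra (0.23, SE 0.28) had the next smallest p-values over both sexes.

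Markers of other cells that share these genes were set beside them. Osteoclast genes were positive in 12 of 13 in males (median 0.65), 10 of 13 in females (median 0.12) and 12 of 13 over both sexes (median 0.44). Their summed level was 2283 and 1759 CPM in male KO, 1238 and 911 CPM in male WT, 1523 and 1458 CPM in female KO, and 1182 and 1386 CPM in female WT, so all KO libraries lay above all WT libraries. Like Csf1r and Cd68, the osteoclast sum was highest in male KO 1 and lowest in male WT 2. This order was not particular to osteoclast genes. The sum of 16 cartilage, bone, muscle and nerve genes was also highest in male KO 1 and lowest in male WT 2. That sum was 27102 to 52170 CPM in KO and 13502 to 25745 CPM in WT, again without overlap. Dcstamp, needed for osteoclast fusion, had 8.94 to 13.7 CPM in KO and 6.16 to 7.37 CPM in WT (0.72, SE 0.17, edgeR adjusted p = 0.510, DESeq2 0.0190). Osteoclast genes at an unadjusted p below 0.05 numbered 7 of 13 in males, 2 in females and 5 over both sexes (14.8%, 9.27% and 6.83% of all genes), and DESeq2 called 5 in males, 0 in females and 1 over both sexes, all higher in KO (2.74%, 0.811% and 0.779% of all genes). The part of osteoclasts in the Csf1r and Cd68 values was not tested.

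Microglia genes, markers of the macrophages of the spinal cord, were positive in 3 of 8 in males (median -0.19) and 6 of 8 in females (median 0.31), a sign pattern unlike that of the 9 genes. P2ry12, a purine receptor of microglia named after its values were seen, had 5.28 and 9.62 CPM in male KO, 11.2 and 12.5 CPM in male WT, 8.75 and 5.38 CPM in female KO, and 4.43 and 4.41 CPM in female WT. Its 4 highest values, 8.75 to 12.5 CPM, were those of the 4 libraries with the highest mitochondrial shares, as for Mrc1. Each side of this split held KO and WT libraries. Both male WT libraries lay on the high side and both female WT libraries on the low side. Within a sex, genotype and this split are therefore partly confounded. The part of the split in the P2ry12 values was not tested. Monocyte genes were positive in 5 of 6 in males (median 0.58) and 2 of 6 in females (median -0.13), with a summed level of 26.1 to 119 CPM in KO and 22.3 to 64.6 CPM in WT. Neutrophil genes were positive in 10 of 13 in males (median 0.65) and 4 of 13 in females (median -0.72). Endothelial genes were positive in 9 of 9 tested in males (median 0.77) and 1 of 9 in females (median -0.42). The Kupffer cell marker Clec4f was at 0 in female KO 1 and female WT 2 and at most 0.758 CPM elsewhere. The liver genes, a list that includes Clec4f, summed to 53.7 to 905 CPM in KO and 30.2 to 1034 CPM in WT. The part of liver macrophages in the 9 genes was not tested. In edgeR 0 genes of the osteoclast, microglia, monocyte, neutrophil and endothelial lists passed the adjusted threshold for KO against WT. The unadjusted p was below 0.05 for 1 microglia, 0 monocyte, 2 neutrophil and 5 endothelial genes in males (14.8% of all genes) and 0, 0, 4 and 1 in females (9.27%). Of these 4 lists, DESeq2 called 2 neutrophil genes, both higher in male KO, and 0 others. Their part in the values of the 9 genes was not tested.

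**Figure D5:**
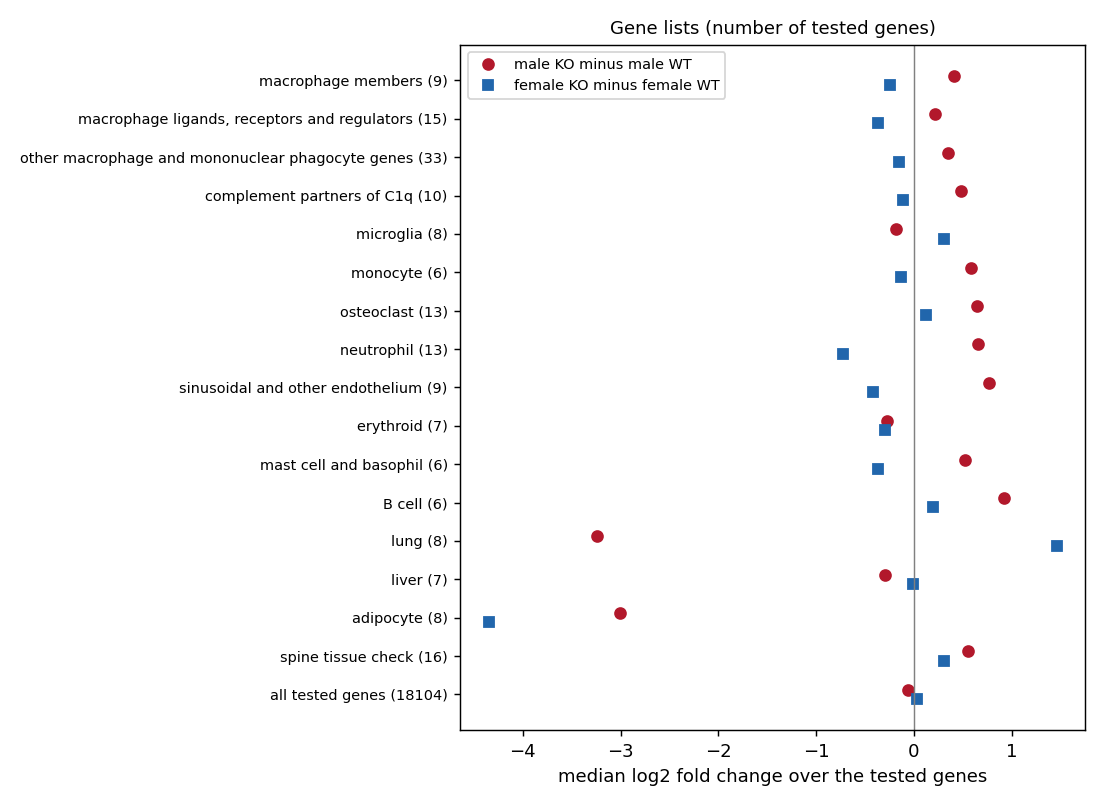
Median log2 fold change (x axis) over the tested genes of each list (y axis, number of genes in brackets) for male KO minus male WT (circles) and female KO minus female WT (squares). The 9 macrophage genes stand at 0.41 in males and -0.25 in females, and all tested genes at -0.06 and 0.03.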

How the data were processed

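Whole-spine RNA at E18.5 was extracted with TRIzol and made into 8 stranded mRNA libraries, per the labels' protocols. The authors deposited 1 table of whole-number read counts per Entrez gene, without normalization. Per the submitters' processing notes, the tools included HISAT2, featureCounts, FastQC and MultiQC, and the build was mm10. Annotation, strand setting and the handling of multi-mapping reads: not given in the sources used here. Symbols were taken from a RefSeq table of GRCm38.p6 for 25275 of 27179 genes. Groups came from the sample titles and genotype labels, and no sample column was left unused (0 columns).

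Counts were filtered (filterByExpr, minimum count 10), scaled by TMM and tested with edgeR 4.0.16 (R 4.3.3) quasi-likelihood F tests, two-sided, with Benjamini-Hochberg adjustment over 18104 genes and a threshold of 0.05. Effects within each sex and their difference came from group means (4 groups, 4 residual df), and effects over both sexes or genotypes from an additive model (5 residual df). The common biological coefficient of variation was 27.8%. SEs were derived from F (absolute log2 fold change over the root of F). Ratios and shares were compared 4 against 4 by exact permutation; 2 against 2 libraries allow no useful permutation p. Log2 CPM used a prior count of 2. The edgeR steps were tested on simulated data. DESeq2 1.42.0 and limma 3.58.1 (voom), other scalings and filters, a replicate block, a mitochondrial covariate and left-out libraries were the alternatives. The 9 genes and the other gene lists were chosen with earlier results of these data known. The genes named were all 9, up to 4 per list with the smallest p over both sexes, and the 10 nearest in profile; others are marked where named. Libraries of 1 group differed from each other by a chi-square of 137 to 683 per degree of freedom, far beyond counting noise, and each was kept. The erythroid gene Hbb-bt was not in the table. A motif was searched on both strands of each promoter window. The C1qa, Adgre1 and Csf1r promoters were not used here.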

Additional observations from a re-analysis of the deposited data

Results flagged for a closer look

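Csf1r in male KO 1, at 126 CPM, stood far from the other 3 KO libraries (82.8, 74.4 and 78.7 CPM): its gap to the nearest was 0.837 of the whole range, above the critical value of 0.829 for 4 samples. Of 18 sets of 4 libraries checked (9 genes, KO and WT), this was the only such case, and chance gives about 1 in 20. The same library was also the highest of the 8 for Cd68, C1qb and C1qc.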

How the results depend on the processing

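Of the 9 genes, 0 passed the adjusted threshold in any of the 17 alternatives, with the exception of C1qb under DESeq2 for the female effect minus the male effect (-1.39, adjusted p = 0.0433; 0.0433 to 0.655 over the alternatives; 1 of the 9 genes called). The count of called genes over the whole table moved, and the medians of the 9 genes moved with single libraries, as given beside them. DESeq2 called 487 genes in males, 144 in females, 141 over both sexes, 361 for the difference between the sexes' effects and 235 for sex. Without a filter on low counts 39 were called in males, 1 for the difference and 12 for sex. With the mitochondrial share as a covariate 2 were called in females and 9 for sex, and limma voom called 5 for sex. Without male WT 1 and female WT 2, 24 were called in females and 1 for the difference. Leaving out 1 library gave 0 to 33 called genes in females (33 without female WT 2), 0 to 9 for the difference (9 without female WT 2) and 2 to 35 for sex (35 without male KO 2, 5 without female KO 1).

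Some estimates changed sign under some settings, and the cause was not tested. In males these were C1qa at -0.0032 (filter of 1 CPM in 4 libraries), Mrc1 at 0.38 and Lyz2 at 0.59 (mitochondrial covariate), and Mrc1 at 0.033 (without male WT 1 and female WT 2). In females they were Cd68 at 0.15 and C1qa at 0.079 (without that WT pair). Over both sexes C1qa was 0.0080 (scaling without mitochondrial genes), 0.0057 (mitochondrial covariate) and 0.30 (without the WT pair), and Adgre1 0.0062 (without the pair). For the difference between effects Mrc1 was -0.32 (mitochondrial covariate), against 0.33 in the main fit. For sex Csf1r was -0.20 and Cd68 -0.051 (mitochondrial covariate), and Csf1r -0.047 and C1qa 0.033 (without the WT pair).

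With 1 library left out, the ranges of estimates that changed sign were as follows. In males C1qa ran from -0.32 to 0.48, Mrc1 from -0.54 to 0.26, Lyz2 from -0.91 to 0.42 and Adgre1 from -0.13 to 0.38. In females Mrc1 ran from -0.13 to 0.54, Cd68 from -0.38 to 0.15, C1qa from -0.59 to 0.33 and Cd163 from -0.21 to 0.48. Over both sexes C1qc ran from -0.095 to 0.24, C1qa from -0.21 to 0.16, Mrc1 from -0.10 to 0.25, C1qb from -0.27 to 0.17 and Adgre1 from -0.22 to 0.043. For the difference C1qa ran from -0.61 to 0.28, Mrc1 from -0.044 to 0.78 and Lyz2 from -1.01 to 0.32. For sex C1qa ran from -0.26 to 0.12, C1qc from -0.17 to 0.17, Csf1r from -0.13 to 0.30, Cd68 from -0.13 to 0.37 and C1qb from -0.43 to 0.0061.

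The replicate numbers did not pair the samples: deviations of same-numbered libraries correlated at -0.531 to 0.178. With the replicate number as a block, 0 of the 9 genes were called in any comparison, and the Csf1r estimate in males was 0.78 (SE 0.27, edgeR adjusted p = 0.396).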

Other observations

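Markers of further cell types and tissues were read in the same libraries. B cell genes were positive in 6 of 6 in males (median log2 fold change 0.93) and 4 of 6 in females (median 0.19), at a summed level of 4.1996 to 8.23 CPM in KO and 3.87 to 5.18 CPM in WT. Mast cell genes were positive in 6 of 6 in males (median 0.52) and 2 of 6 in females (median -0.37), the same signs by sex as the macrophage genes. Erythroid genes were positive in 1 of 7 in males (median -0.27) and 0 of 7 in females (median -0.30). Lung genes were positive in 0 of 8 in males (median -3.24) and 8 of 8 in females (median 1.46), and their sum was 3.15 and 2.69 CPM in male KO, 38.5 and 74.7 CPM in male WT, 1.61 and 5.71 CPM in female KO, and 1.66 and 0.582 CPM in female WT. Genes of cartilage, bone, muscle and nerve were positive in 13 of 16 in males (median 0.55) and 10 of 16 in females (median 0.30). Liver genes were positive in 2 of 7 in males (median -0.29) and 3 of 7 in females (median -0.0057), and fat genes in 0 of 8 in males (median -3.003) and 0 of 8 in females (median -4.35). In edgeR 0 genes of these lists passed the adjusted threshold for KO against WT. At an unadjusted p below 0.05 stood 6 of 8 lung, 5 of 8 fat, 5 of 16 cartilage, bone, muscle and nerve, 2 of 6 B cell, 1 of 7 erythroid, 0 of 6 mast cell and 0 of 7 liver genes in males, beside 14.8% of all genes. In females these were 8 fat, 2 lung, 2 cartilage, bone, muscle and nerve genes and 0 of the other lists, beside 9.27%. DESeq2 called 3 lung genes in males, all lower in KO, and 2 cartilage, bone, muscle and nerve genes in males, 1 higher and 1 lower in KO (2.74% of all genes). In females it called 6 fat genes, all lower in KO (0.811% of all genes), and 0 of the other lists.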
